A study of Antirrhinum majus with 21 samples.

Results

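Among the genes measured in snapdragon (Antirrhinum majus) corollas, a set was highest in the pale genotype rosrec_elpse, which carries a recombinant ROSEA allele. A gene qualified when all 3 pale plants lay above the 18 plants of the 6 other genotypes and its pale mean reached 1 CPM (counts per 1000000 reads after TMM scaling, which corrects for differences in library composition). Genes placed on the assembly sequence named after the ROS locus or on 5 listed scaffolds were left out. Of 37234 genes, 515 qualified (1.38%), and 9 more would have done so without that exclusion. They were ranked by the gap, which is the pale mean of log2(CPM + 0.5) minus the highest of the 6 other genotype means, and the top 200 form the list described here. The members were thus chosen by CPM values of these same 21 libraries, so pale against any other genotype is described and not tested.

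RNA was sequenced from the corolla of a flower bud 5 to 10 mm long (stage 12 to 13), 1 bud and 1 library per plant, in 21 plants of 7 genotypes grown outdoors, with 3 plants each. Reads were 50 bp and single-end. The pale genotype rosrec_elpse joins a recombinant ROS allele, from A. m. striatum upstream and A. m. pseudomajus downstream, to the recessive EL allele of pseudomajus. The magenta genotype ROSji7_elji7 carries a dominant ROS and a recessive EL allele of stock line JI7. The magenta genotype ROSpse_elpse carries the same kind of pair from pseudomajus. In the eluta genotypes ROSji7_ELstr and ROSpse_ELstr, those ROS alleles stand with the dominant EL allele of striatum. The white genotype rosstr_ELstr has a recessive ROS and the dominant EL allele of striatum, and the white genotype rosdor_eldor has recessive alleles of stock line rosea-dorsea at both loci. The labels do not give zygosity.

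ROSEA encodes MYB transcription factors that turn on the enzymes of anthocyanin synthesis and so set how strongly the corolla is coloured magenta. ELUTA is a closely linked locus whose dominant allele restricts the magenta to a smaller area of the flower. The files pair no gene ID with a gene name, so the role of the members is unknown here, markers of petal or of other tissues could not be checked, and each gene is given by its ID.

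Library totals ran from 8925834 to 41860396 reads. All 3 pale plants share the ID prefix A177, which no other genotype carries. This prefix is read as plant family throughout, though the labels do not say what it marks. Plant family in this sense and the pale genotype cannot be told apart. The numbers in the names of the deposited tables fall into a low series (5 libraries), a middle series (13) and a high series (3), and pale replicate 1 is of the low series and pale replicates 2 and 3 of the high series. The TMM factor of pale replicate 1 was 0.788, against 0.997 and 1.02 in the other pale libraries, and its 10 most abundant genes held 5.60% of its reads.

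Most of the 200 genes stood only modestly above the next genotype. The gap had a median of 0.59 on the log2 scale, with quartiles of 0.50 and 0.72, and ran from 2.11 down to 0.46. It was at least 1 in 16 members, and it stepped from 1.10 at rank 16 to 0.97 at rank 17. On the linear scale the pale mean was at least 2-fold the highest other genotype mean in 21 members, and the median ratio was 1.52. The separation of single plants was narrower. The lowest pale library was a median 1.17 times the highest of the 18 others, more than 1.5 times in 9 members and more than 2 times in 4. More cells of a type and more RNA per cell cannot be told apart in whole corollas.

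**Figure D1:**
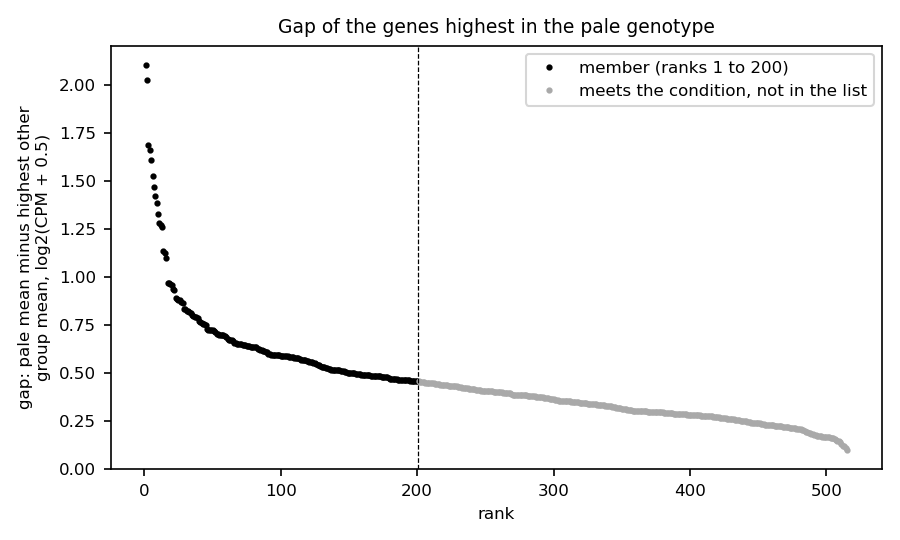
Gap of the 515 genes that met the condition, by rank (x axis, rank; y axis, pale mean minus the highest other genotype mean, log2(CPM + 0.5)). Black points are the 200 members and grey points the genes beyond the dashed line at rank 200; the values fall steeply over the first 16 ranks and then run on across the edge of the list with no step.

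The edge of the list was not marked by a break in the values. AnMG0001850800, at rank 199, had a gap of 0.46 with a pale mean of 294.8 ± 51.9 CPM, and AnMG0001730900, at rank 200, had a gap of 0.46 with 18.7 ± 0.549 CPM (SD, n = 3). Just outside, AnMG0006372500 had a gap of 0.46 with 20.6 ± 4.43 CPM and AnMG0005771200 a gap of 0.46 with 36.4 ± 4.38 CPM. The same condition, with no limit on length, was also applied to the other genotypes by TMM-scaled CPM. It was met by 311 genes for ROSpse_elpse, 72 for ROSji7_ELstr, 63 for ROSji7_elji7, 42 for ROSpse_ELstr, 23 for rosstr_ELstr and 3 for rosdor_eldor. The pale count of 515 was 122 by TPM and 373 by TPM divided by the TMM factor, and the lists of the other genotypes were not made on those scales.

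The summed level of the 200 genes describes the size of the chosen excess, since the rule puts each of them highest in pale. Their summed CPM was 1.59% to 1.74% of the TMM-scaled total in the 3 pale libraries and 0.723% to 1.06% in the 18 others. As a share of the raw totals, the ranges were 1.37% to 1.65% and 0.658% to 1.17%. The median member lay 0.98, 0.86 and 0.88 above the mean of the 18 others in pale replicates 1, 2 and 3 on the log2 scale, while the median of all tested genes lay at -0.06, -0.01 and -0.01 there.

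**Figure D2:**
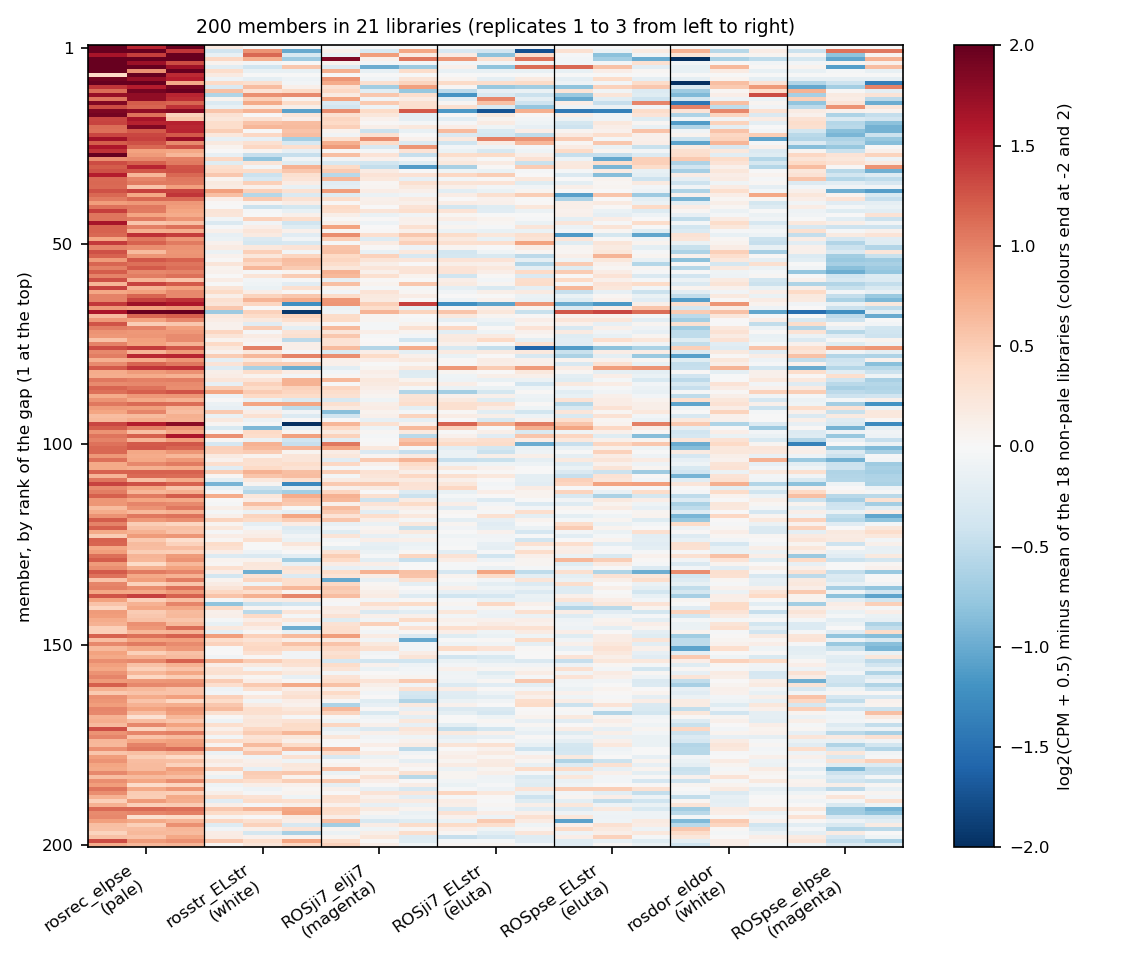
Level of each member in each library, as log2(CPM + 0.5) minus the mean of the 18 non-pale libraries (colour scale, red higher, blue lower; rows by rank of the gap, columns by genotype with replicates 1 to 3 from left to right). The 3 pale columns are red in nearly every row, most deeply in the top ranks, and rosdor_eldor replicate 1 and ROSpse_elpse replicates 2 and 3 hold the broadest blue bands.

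The members did not stand at 1 common level in the other 6 genotypes. rosstr_ELstr, white, came nearest to pale, with a median difference of 0.67 (log2, pale minus genotype). ROSji7_elji7, magenta, followed with 0.78, then the eluta genotypes ROSji7_ELstr with 0.88 and ROSpse_ELstr with 0.91, white rosdor_eldor with 0.96 and magenta ROSpse_elpse with 1.12. Over all tested genes these medians were between -0.04 and -0.01. rosstr_ELstr had the highest mean of the 6 in 97 members (48.5%), against 17.1% of all tested genes. ROSpse_elpse had the lowest mean in 100 members (50%), against 24.5% of all tested genes. A white and a magenta genotype stood at each end of the order. The rule used the highest of these means, so the order is a description.

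Plants within a genotype also differed in the level of the list. The member median, relative to the 18 others, was 0.12, 0.22 and 0.13 in rosstr_ELstr and 0.28, 0.06 and 0.06 in ROSji7_elji7. It was -0.21, 0.09 and -0.05 in rosdor_eldor and 0.02, -0.28 and -0.20 in ROSpse_elpse. The values of ROSji7_ELstr (0.01, -0.01 and -0.01) and ROSpse_ELstr (-0.06, 0.05 and -0.06) were close to 0. Only the 3 rosstr_ELstr and the 3 ROSji7_elji7 libraries were all above 0, and in each of rosdor_eldor, ROSpse_elpse, ROSji7_ELstr and ROSpse_ELstr the plants lay on both sides of 0.

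**Figure D3:**
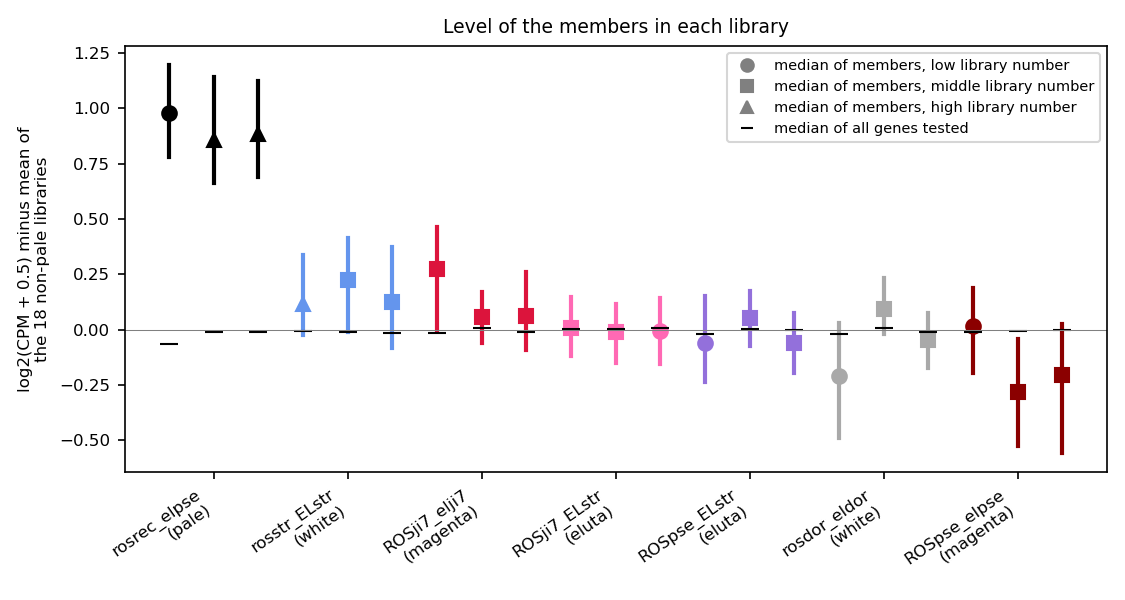
Median of the 200 members in each library with its quartiles (symbols and vertical lines; y axis, log2(CPM + 0.5) minus the mean of the 18 non-pale libraries), and the median of all tested genes (short black bars). Circles, squares and triangles mark the low, middle and high library number series; pale medians are 0.86 to 0.98 and all others lie between -0.28 and 0.28.

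The largest gaps belonged partly to genes that were barely detected outside the pale plants. AnMG0005835400 (scaffold 1105, 136049 to 144145, plus strand) had 3.01, 0.950 and 1.74 CPM in the pale plants. Of the 18 other libraries 1 held any reads, rosstr_ELstr replicate 1 at 0.0696 CPM, and the rest were at 0. Pooled over libraries this was 152 reads against 3, a ratio of 288 with a 95% counting interval of 96.6 to 1411. Its placement overlaps 2 genes on the opposite strand, and whether counting used strand is not given, so reads of these genes cannot be told apart.

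AnMG0004247310 and AnMG0004247510 are neighbours on scaffold 455 (408239 to 409642 and 420270 to 421259, plus strand), with no tested gene between them. AnMG0004247310 had 0.164, 2.42 and 0.924 CPM in the pale plants, from 3, 84 and 34 reads. Its 121 reads there stood against 3 in a single other library, rosstr_ELstr replicate 1, a ratio of 229 (76.5 to 1126). Pale replicate 1 held the same number of reads, 3, as rosstr_ELstr replicate 1. It lay above that library only because its library total was smaller, 23178767 against 41860396 reads. Among libraries that are not pale, only rosstr_ELstr replicate 1 is of the high series, and it alone held reads of AnMG0005835400. AnMG0004247510 had 1.59, 1.21 and 0.788 CPM, 100 reads against 12 over 7 other libraries, a ratio of 47.3 (25.9 to 94.6). Pale replicate 1 was the lowest of the pale plants for the first gene of the pair and the highest for the second.

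AnMG0005927710 (scaffold 261) had 2.24, 0.547 and 1.87 CPM in the pale plants, and its 129 reads stood against 34 elsewhere, a ratio of 21.5 (14.7 to 32.4). Its placement overlaps another gene on the same strand. AnMG0005264210 (scaffold 593) had 1.64, 1.38 and 1.17 CPM, with 121 reads against 37, a ratio of 18.6 (12.8 to 27.6). For both, the highest other library was ROSji7_elji7 replicate 1, at 0.408 and 0.545 CPM. These ratios describe the reads that chose the genes, and the intervals cover counting error between pooled libraries and test no difference between genotypes. These 5 genes rest on 152 pale reads or fewer each, whereas the median member had 3997.5.

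The other 5 of the top 10 were expressed in the other genotypes as well. AnMG0607481900 (scaffold 414) had 33.6, 19.5 and 7.28 CPM in the pale plants, against a lowest, median and highest value of 0.362, 2.37 and 5.60 CPM in the 18 others. AnMG0002065800 (scaffold 1276) had 82.2, 104.7 and 65.1 CPM against 8.90, 19.0 and 44.3. AnMG0004428100 (scaffold 128) had 12.7, 22.2 and 31.1 CPM against 0.253, 2.88 and 11.6. In AnMG0004428100 the lowest pale plant was only just above the highest other plant, ROSji7_elji7 replicate 1.

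AnMG0007293200 (scaffold 2672) had 2.46, 1.96 and 6.52 CPM against 0.0329, 0.473 and 1.59. AnMG0006336800 (scaffold 322) had 10.0, 16.2 and 3.86 CPM against 0.126, 2.72 and 3.81. The gaps of these 5 genes were 2.03, 1.53, 1.66, 1.69 and 1.33 in the order given. In 3 of them, AnMG0607481900, AnMG0007293200 and AnMG0006336800, the highest pale plant was over 3 times the lowest.

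The 5 most abundant members had ranks of 84, 97, 107, 108 and 179 by the gap. AnMG0006229600 (scaffold 121, 1149246 to 1151528, plus strand) had the highest pale mean, 577 ± 8.88 CPM, from 586, 569 and 576 CPM. Its values in the others ran from 179.8 through a median of 278 to 458 CPM, with rosstr_ELstr at 334, 343 and 458. AnMG0005775200 (scaffold 50, 284067 to 286361, minus strand) had nearly the same level in each pale plant, 463, 466 and 465 CPM. It was at 287, 331 and 313 CPM in rosstr_ELstr and at 125.6 to 285 CPM in the other 15 libraries, so rosstr_ELstr stood between the pale plants and the rest.

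AnMG0005710900 (scaffold 463) had 646, 527 and 525 CPM in the pale plants and 226 to 479 CPM elsewhere, and its placement overlaps another gene on the same strand. AnMG0708565700 (scaffold 58) had 436, 593 and 591 CPM in the pale plants and 141.9 to 416 CPM elsewhere. AnMG0307358200 (scaffold 546) had 591, 479 and 540.1 CPM in the pale plants and 244 to 418 CPM elsewhere. The gaps of these 5 abundant genes were 0.47 to 0.62. Over the whole list the pale mean ran from 1.17 to 577 CPM with a median of 44.6, below 5 in 20 members and above 100 in 50. On a scale per length (TPM, transcripts counted per 1000000), the pale means ran from 0.959 to 1170.

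**Figure D4:**
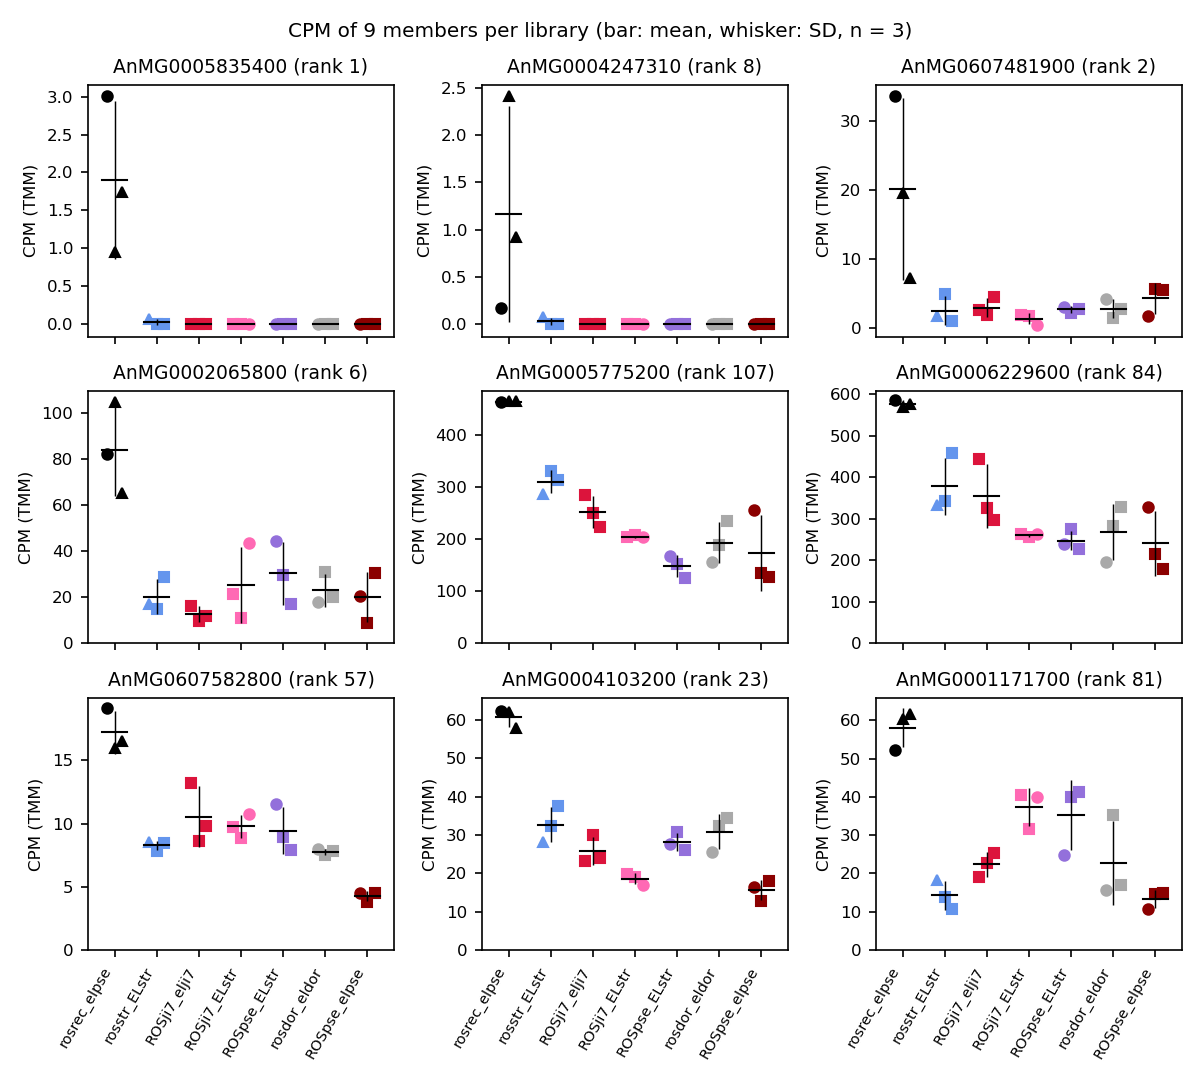
CPM of 9 members in each library by genotype (points, single libraries; horizontal bars, means; vertical lines, SD, n = 3; circles, squares and triangles, low, middle and high library number series). Each panel has its own linear y axis; AnMG0005835400 and AnMG0004247310 are at or near 0 outside the pale plants, AnMG0005775200 is 463 to 466 in the pale plants, and AnMG0607582800 is lowest in ROSpse_elpse.

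The 3 pale plants were close to each other for most members. The ratio of the highest to the lowest pale library had a median of 1.23, was below 1.5 in 167 members and exceeded 2 in 13. It was largest in AnMG0004247310 (14.7) and AnMG0607481900 (4.62), and smallest in AnMG0005775200 (1.01) and AnMG0507463400 (1.02). AnMG0507463400 (scaffold 744) had 364, 369.7 and 363 CPM in the pale plants and 127 to 307 CPM elsewhere, and it overlaps a gene on the opposite strand. By TMM-scaled CPM, pale replicate 1 was the highest of the 3 in 103 members, replicate 2 in 39 and replicate 3 in 58.

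Membership depended on the scaling of the libraries. With library totals in place of TMM, 106 of the 200 members still had all pale plants above all others, and with TPM 82 did. With DESeq2 size factors 197 did, and with TPM divided by the TMM factor 158 did. The median of all tested genes in pale replicate 1, relative to the 18 others, was -0.06 by TMM, -0.37 by library totals and -0.40 by TPM. The median member stood 0.98, 0.62 and 0.59 above the 18 others in that library by the same scalings, about 1 log2 unit above the median gene each time. In pale replicate 2 it was 0.86, 0.84 and 0.78 and in pale replicate 3 0.88, 0.90 and 0.83. The genotype mean gap was above 0 in 200, 200 and 199 members.

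Pale libraries were also compared with others of their own library number series. In the low series, pale replicate 1 lay a median 1.07 (log2) above the mean of the 4 other libraries. The difference was above 0.5 in 195 members, against 16.2% of tested genes. Those 4 libraries are of ROSji7_ELstr, rosdor_eldor, ROSpse_elpse and ROSpse_ELstr, so rosstr_ELstr and ROSji7_elji7, the nearest to pale, are absent. In the high series, pale replicates 2 and 3 lay a median 0.73 above rosstr_ELstr replicate 1, and by more than 0.5 in 143 members, against 13.8% of tested genes. Within the pale genotype the low-series plant lay 0.07 above the high-series plants by TMM-scaled CPM. By library totals its member median, relative to the 18 others, was below theirs, 0.62 against 0.84 and 0.90. By TPM it was 0.59 against 0.78 and 0.83. Within rosstr_ELstr the high-series plant lay -0.00 from the others by TMM-scaled CPM. The values 1.07 and 0.73 thus set pale against different genotypes. The rule requires a positive value in both series for each member. No pale library is of the middle series, which holds 13 of the 18 others.

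**Figure D5:**
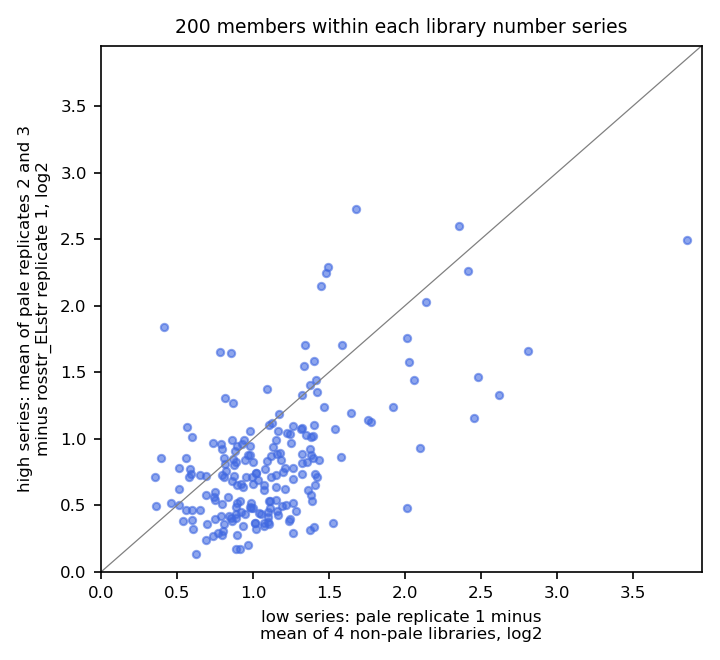
Each point is a member: pale minus non-pale in the low library number series (x axis, 1 pale against 4 other libraries, log2) and in the high series (y axis, 2 pale libraries against rosstr_ELstr replicate 1, log2). All 200 points lie above 0 on both axes, as the rule requires, with medians of 1.07 and 0.73. Most lie below the diagonal line of equal values. The axes set pale against different genotypes, so series and genotype cannot be told apart in the distance from the diagonal.

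The pale libraries take no part in contrasts among the 18 other plants. The rule still bounded those plants from above and used the highest of their genotype means, so counts and medians over the members are descriptions and no independent evidence. Genes were tested with the quasi-likelihood test of edgeR over 24535 genes, with Benjamini-Hochberg adjustment and a threshold of 0.05. In all, 194 members passed the filter on low counts and the 6 not tested were AnMG0005835400, AnMG0004247310, AnMG0004247510, AnMG0005927710, AnMG0005264210 and AnMG0001306210. The p-values measure the spread between single plants. In 6 genotype pairs, 8 distinct members were called at least once. How many of all genes were called at least once in these pairs was not counted, so nothing is read from the 8. ROSpse_elpse enters 3 of these pairs, so their calls are not independent.

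The comparisons of a dominant with a recessive ROS allele called 1 member. rosstr_ELstr and ROSpse_ELstr differ in the labelled ROS allele, and between them edgeR called 0 members higher (0.0489% of all genes) and 0 lower (0.147%). At an unadjusted p under 0.05 it gave 45 of 194 members (11.8% of all genes), and DESeq2 called 6 (3.02% of all genes). The members' median log2 fold change was 0.20, with 142 of 194 above 0, against 0.00 and 50.1% over all genes. For ROSpse_elpse against rosdor_eldor, whose alleles differ in origin at both loci, 0 were called higher (0.13%) and 1 lower (0.147%), DESeq2 called 3 (3%), and the median was -0.15 against -0.03 over all genes. The first pair is recessive minus dominant ROS and the second dominant minus recessive, so both medians lie on the side of the recessive allele. With plant family as a term the first median was 0.34, with 166 of 194 above 0, and the second was 0.10, with 116 above 0. Of the genotypes in these fits only rosdor_eldor has plants of several families, 1 plant in each of A181, A174 and A182. The fits with plant family thus rest on single rosdor_eldor plants.

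The white genotypes gave fold changes of 1 direction for most members but no call. For rosstr_ELstr against rosdor_eldor, edgeR called 0 higher (0.0448%) and 0 lower (0.0285%). At an unadjusted p under 0.05 there were 38 (6.72% of all genes), and DESeq2 called 0 (0.465%). The median was 0.22, with 153 of 194 above 0. rosstr_ELstr was the highest of the 6 genotypes in many members, a height that the rule used, so the direction is not independent of the choice of genes.

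The comparisons of EL alleles gave 5 calls with ROSpse and 0 with ROSji7. For ROSpse_ELstr against ROSpse_elpse, edgeR called 5 members higher (1.34% of all genes) and 0 lower (1.26%), and DESeq2 called 14 (6.3%). The 5 calls are 2.58% of the members tested, against 2.60% of all genes called in either direction. The median was 0.17, with 138 of 194 above 0. With plant family as a term it was -0.25, with 62 of 194 above 0, and 0 members were called (0.382% of all genes). The fit with plant family joins A174 and A181 through 1 rosdor_eldor plant each. The plant in A181, replicate 1, had the smallest library total, 8925834 reads. For ROSji7_ELstr against ROSji7_elji7, edgeR called 0 higher (0.0856%) and 0 lower (0.0734%), and DESeq2 called 0 (1.81%). At an unadjusted p under 0.05 edgeR gave 9 members (10.7% of all genes). Over all genes that pair gave calls in 0.159%. There the median was -0.12, with 58 of 194 above 0. The difference between the EL effects was tested as an interaction, a test added with the values known. It called 1 member higher (0.204%) and 0 lower (0.187%) by edgeR and 8 by DESeq2 (2.73%).

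The magenta genotypes differed in 6 members by edgeR. For ROSpse_elpse against ROSji7_elji7, edgeR called 0 members higher (2.32%) and 6 lower (1.86%), and DESeq2 called 22 (12.5%), all lower. The median was -0.30, with 39 of 194 above 0, against -0.07 over all genes. The 6 calls are 3.09% of the members tested, against 4.18% of all genes. These genotypes carry different ID prefixes, A181 and A183, read as plant families, which cannot be told apart from the alleles here.

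AnMG0607582800 (scaffold 444, 324072 to 326535, plus strand) was 1 of 3 members in which all ROSpse_elpse plants lay below the other 15 plants that are not pale. It had 4.50, 3.80 and 4.49 CPM there, against 13.2, 8.61 and 9.83 in ROSji7_elji7 and 11.5, 8.95 and 7.87 in ROSpse_ELstr, and the groups did not overlap. It was lower in ROSpse_elpse than in ROSji7_elji7 by -1.32 ± 0.19 in log2 units (SE; adjusted p 0.00338 in edgeR). The gene was higher in ROSpse_ELstr than in ROSpse_elpse by 1.16 ± 0.19 (edgeR adjusted p 0.00885). That call was lost without ROSpse_elpse replicate 2 and with plant family as a term (edgeR adjusted p 0.267). It was also lost in the middle library number series alone (edgeR adjusted p 0.0993). Its pale values were 19.2, 16.0 and 16.5 CPM.

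AnMG0004103200 (scaffold 1363, 534139 to 536422, minus strand) was called in the most comparisons. It had 16.5, 12.7 and 17.9 CPM in ROSpse_elpse, 27.5, 30.7 and 26.1 in ROSpse_ELstr, 25.6, 32.4 and 34.4 in rosdor_eldor and 23.2, 30.0 and 24.1 in ROSji7_elji7. ROSji7_ELstr was low as well, at 19.7, 19.0 and 16.9 CPM. All 3 ROSpse_elpse plants lay below those of the 3 genotypes it was compared with. The log2 fold change of ROSpse_elpse was -0.99 ± 0.17 against rosdor_eldor (edgeR adjusted p 0.0335) and -0.73 ± 0.17 against ROSji7_elji7 (edgeR adjusted p 0.0295). That of ROSpse_ELstr against ROSpse_elpse was 0.86 ± 0.17 (edgeR adjusted p 0.0174). When the model also held the plant family, the last was 0.50 (edgeR adjusted p 0.603) and the contrast with rosdor_eldor was -0.71 (edgeR adjusted p 0.174), so both calls were lost. In the middle library number series alone the edgeR adjusted p was 0.0761 against rosdor_eldor, 0.0716 against ROSji7_elji7 and 0.0840 for ROSpse_ELstr. Leaving out any of 4, 3 or 2 single libraries also ended the call, in the same order.

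With the striatum EL allele AnMG0004103200 was thus higher in the plants with ROSpse and lower in all 3 plants with ROSji7. The change with ROSji7 was not called by edgeR or DESeq2. The genotypes compared are of the families A181, A174, A183 and A172, so family and allele cannot be told apart. The difference of the changes was 1.34 ± 0.24 (log2, edgeR adjusted p 0.0266). It lost its call when any of 8 of the 12 libraries was left out, over adjusted p-values of edgeR and DESeq2 from 2.96e-05 to 0.139 in 18 alternatives. In the pale plants the gene was at 62.2, 62.1 and 57.8 CPM.

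AnMG0001171700 (scaffold 29, 494670 to 497404, minus strand) had the largest fold change among the calls. It was at 10.7, 14.7 and 14.8 CPM in ROSpse_elpse and at 24.8, 39.9 and 41.3 in ROSpse_ELstr, a log2 difference of 1.42 ± 0.30 (adjusted p 0.0253 in edgeR). ROSji7_ELstr was similar to ROSpse_ELstr, at 40.5, 31.6 and 40.1 CPM, and rosstr_ELstr, with the same EL allele, was low at 18.4, 13.9 and 10.8. With plant family as a term the fold change was 0.23 (edgeR adjusted p 0.878). The call was also lost in the middle library number series alone (edgeR adjusted p 0.0730) and without any of 5 of the 6 libraries compared.

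The remaining calls had adjusted p-values of 0.0161 to 0.0452 in edgeR. AnMG0408582200 (scaffold 477) had 2.95, 2.97 and 3.25 CPM in ROSpse_elpse and 7.44, 4.97 and 7.08 in ROSji7_elji7 (-1.10 ± 0.24, edgeR adjusted p 0.0230), and its placement overlaps another gene on the same strand. The other 4 called members are named with their values known, as they are few. AnMG0003810700, AnMG0005184800 and AnMG0607492700 were lower in ROSpse_elpse than in ROSji7_elji7, by -0.79, -0.81 and -0.68 (edgeR adjusted p 0.0226, 0.0344 and 0.0452). AnMG0002946600 and AnMG0607492700 were higher in ROSpse_ELstr than in ROSpse_elpse, by 0.76 and 0.75 (edgeR adjusted p 0.0161 and 0.0400). Every one of these 6 calls was lost without at least 1 library.

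Separation of whole genotypes among the 18 plants was counted too, a count added after the values were seen. All 3 rosstr_ELstr plants lay above the other 15 in 5 members (0.583% of tested genes), AnMG0005775200, AnMG0003753400, AnMG0706853100, AnMG0508344600 and AnMG0001853000. In AnMG0003753400, rosstr_ELstr had 180.0, 166.7 and 176.9 CPM against at most 155.7 in the other 15, and the pale plants had 273, 234 and 251 CPM. All 3 ROSpse_elpse plants lay below the other 15 in 3 members (1.38%), AnMG0607582800, AnMG0408582200 and AnMG0607492700. These counts turn on single plants: the count of 5 became 19 without ROSji7_elji7 replicate 1, 24, 9 and 10 without rosstr_ELstr replicates 1, 2 and 3, and 2 by TPM. The count of 3 became 29, 5 and 8 without ROSpse_elpse replicates 1, 2 and 3, and 8 without rosdor_eldor replicate 1. A condition on fewer plants is met more easily by any gene. The shares of all tested genes with a plant left out or by TPM were not counted. These changed counts thus cannot be set against 0.583% and 1.38%. All 3 ROSpse_ELstr plants lay above in AnMG0003770600 and AnMG0002946600 (0.277%).

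In AnMG0003770600 the values were 8.46, 9.06 and 7.76 CPM in ROSpse_ELstr, 11.3, 14.5 and 15.1 in the pale plants and 0.501 to 5.63 in the other 15. No member met the condition in the other 9 cases. Over all tested genes those cases were above 0.359% and below 0.436% for ROSji7_elji7, above 0.456% and below 0.302% for ROSji7_ELstr, and above 0.0367% and below 0.0856% for rosdor_eldor. They were above 1.62% for ROSpse_elpse, below 0.293% for ROSpse_ELstr and below 0.509% for rosstr_ELstr. A high value in any plant that is not pale keeps a gene off the list, so nothing is read from these counts.

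The library number series was tested within the 18 plants, with genotype in the model. Low against middle, edgeR called 1 member higher (3.39% of all genes) and 1 lower (1.88%), DESeq2 called 8 (12%), and the median was 0.01. AnMG0002645200 (scaffold 1179) was lower in the low series by -1.22 ± 0.22 (edgeR adjusted p 0.0167), with 30.1 CPM in the low-series plant of ROSji7_ELstr against 79.8 and 77.4 in the others. Its pale values were 128, 140.9 and 143.7 CPM. AnMG0706853400 (scaffold 967) was higher by 0.43 ± 0.11 (edgeR adjusted p 0.0480), and its pale values were 49.9 in the low-series plant and 34.2 and 30.3 in the high-series plants.

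The members were spread over the assembly. They lay on 145 sequences, of which 108 held 1 member, 25 held 2 and 12 held 3 or more, 42 members in all. Scaffold 751 held 6 members among 347 tested genes, scaffold 380 held 5 among 151 and scaffold 1376 held 4 among 152. On scaffold 380 the members are strung over 1012 kb. AnMG0004613700 had 101.5, 79.3 and 67.1 CPM in the pale plants and 32.0 to 49.1 elsewhere, AnMG0004601400 80.5, 78.8 and 72.0 against 27.2 to 52.7, and AnMG0004591200 32.5, 37.2 and 29.0 against 10.3 to 27.0. The highest other genotype was ROSji7_elji7 for the first of them and rosstr_ELstr for the other two.

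On scaffold 751, AnMG0001761700 had 61.9, 62.2 and 65.7 CPM in the pale plants and 30.3 to 54.8 elsewhere, AnMG0001775900 36.0, 39.1 and 52.6 against 9.08 to 32.2, and AnMG0409116500 219, 197 and 187 against 80.8 to 162.9. On scaffold 1376, AnMG0006042800 had 146.6, 158 and 156 CPM against 37.7 to 102.3, AnMG0006039100 39.8, 39.3 and 34.8 against 15.1 to 28.3, and AnMG0005436910 6.90, 4.58 and 5.43 against 1.48 to 4.54. The gaps of these 6 members ran from 0.47 to 0.79.

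Some members were close neighbours, though the same count was not made for other genes. There were 4 pairs of members with no tested gene between them. AnMG0706853100 and AnMG0706853400 lie 0.293 kb apart on opposite strands of scaffold 967, AnMG0005775200 and AnMG0005775400 4.358 kb apart on scaffold 50, AnMG0005264210 and AnMG0005850200 4.495 kb apart on scaffold 593 and AnMG0004247310 and AnMG0004247510 10.627 kb apart on scaffold 455. Across the 18 other libraries, log2 levels correlated with an r of 0.72 in the scaffold 50 pair and 0.02 in the scaffold 967 pair. The plants of a genotype share alleles and, except in rosdor_eldor, plant family, so these values are descriptions. Reads of neighbouring transcripts can be shared where annotations overlap: 33 members overlap a gene of the same strand, 14 overlap one of the opposite strand (1 member does both), and 154 overlap none.

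In length and annotation the members were close to all tested genes. Their median transcript length was 1477 bp against 1462 bp, and 75% had a single transcript against 67.7%. All were placed on 1 sequence each, and 89% aligned with an identity of 100 against 86.9%. Their median level in the 18 others was 22.3 TPM against 13.0 over all tested genes, and a minimum pale level was part of the rule. Among the 50 members with more than 1 transcript, the leading transcript was the same in pale and other plants in all 50. The same count was not made over all tested genes.

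AnMG0004596800, with 6 transcripts, had 123, 134 and 138 CPM in the pale plants and 61.5 to 101.9 elsewhere. AnMG0002065800 and AnMG0808302400 have 5 each, and AnMG0808302400 had 18.1, 18.7 and 18.7 CPM in the pale plants and 9.62 to 16.6 elsewhere. The share of the leading transcript in AnMG0004596800 was 56.3% to 67.9% in the pale plants and 38.6% to 66.7% in the others. In AnMG0808302400 it was 25.8% to 43.8% and 34.5% to 59.9%, so the ranges overlap in both. All 3 pale plants lay outside the range of the others in 1 member, AnMG0004619600, where the share was 90.6% to 96.4% in the pale plants and 96.7% to 100% elsewhere. It is named for this difference, with its values known, and its placement overlaps another gene of the same strand. How many of all genes with more than 1 transcript are separated in this way was not counted, so nothing is read from this count.

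Among the 18 other plants the spread of the members was below that of other genes in the median. The median SD within a genotype was 0.264 on the log2 scale against 0.342 over all tested genes, and a wide spread in the others would have kept a gene off the list. The median correlation between pairs of members, over deviations of plants from their genotype means, was 0.13 against -0.00 for pairs of all tested genes. The members shared library, depth and scaling in these values, and what part those had in the correlation was not tested.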

How the data were processed

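Per the file headers, each library has a Salmon table in which the authors deposited 51926 transcripts with an estimated count (expected count) that is not normalised. A further column of the deposited tables holds TPM, scaled by Salmon to 1000000 in every library. The placements on assembly JICv1 (build per the file name) were aligned by the authors with exonerate, per the file headers, and carry an alignment score. The submitters' processing notes name cutadapt 1.16, Salmon 0.9.1 and DESeq2 without their roles. Salmon settings and use of strand are not given in the sources used here.

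Gene totals were made by adding transcripts that share a gene ID (37234 genes), rounded to integers. CPM used TMM factors over the 21 libraries. Among several placements of a gene the best score decided, and coordinates are 1-based. The sequences left out before ranking were ros_assembly and scaffolds 1195, 460, 808, 1088 and 383. Tests were edgeR 4.0.16 quasi-likelihood F tests (R 4.3.3, limma 3.58.1) on the 18 libraries that are not pale, with 1 mean per genotype, at least 0.5 CPM in at least 3 of them, and a Benjamini-Hochberg adjusted p under 0.05 over 24535 genes. The biological coefficient of variation was 0.398. For the library number series (low below 3000, high above 8000), series was added to genotype. Standard errors were derived from F (log2 fold change over root F). The intervals of pooled read ratios are exact binomial ones at 95%.

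The tests were tried on simulated counts (24223 genes, ROSpse_ELstr against ROSpse_elpse). Of 100 genes with a 2-fold change edgeR found 23%, and of 100 with a 4-fold change 74%, beside 2 false calls. The shares for DESeq2 1.42.0 were 40% and 89%, beside 50 false calls. Alternatives were DESeq2, its size factors, no filter, all 21 libraries, a term for series or for plant family, the middle series alone, other scalings and each replicate left out.

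Members, lists and tests were chosen with earlier results of these data known. The genes named are the 10 with the largest gap, the 5 with the highest pale CPM, the 2 on either side of the edge, up to 2 called in each direction per comparison, up to 3 on each of the 3 sequences with the most members, the 3 with the most transcripts, and the 2 largest and 2 smallest ratios among pale plants. Genes named beyond these were named with their values known, among them members not tested, members of neighbour pairs and members in which a whole genotype was separate. Lists of pigment, petal and other tissue genes were not run, because no ID is paired with a name.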

Additional observations from a re-analysis of the deposited data

Results flagged for a closer look

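AnMG0004103200 stood out because the change with the EL allele differed between ROS backgrounds, though the change with ROSji7 was not called by itself. The log2 change from the recessive to the striatum EL allele was 1.34 ± 0.24 (SE) larger with ROSpse than with ROSji7, by an interaction term in edgeR with an adjusted p of 0.0266 over 24535 genes and 3 plants in each of 4 genotypes. All 3 ROSpse_ELstr plants lay above all 3 ROSpse_elpse plants, and all 3 ROSji7_ELstr plants lay below all 3 ROSji7_elji7 plants. With the middle library number series alone the adjusted p in edgeR was 0.139. This interaction was added with the values known, and plant family differs between the genotypes compared, so its part was not tested.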

How the results depend on the processing

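The list depended on scaling and on single plants. Of the 200 members, 82 still had all pale plants above all others with TPM and 106 with CPM by library totals. Leaving out 1 library at a time and ranking anew kept 92 to 198 of them, with 92 without rosrec_elpse replicate 1. The median gap of 0.59 was 0.47 by library totals, 0.39 by TPM and 0.57 to 0.61 without single pale replicates. It was 0.75 in the low library number series alone and 0.73 in the high series alone. There the highest other mean is taken over fewer genotypes, 4 in the low series, without rosstr_ELstr and ROSji7_elji7. The high series holds only rosstr_ELstr replicate 1 beside pale, so 0.75 and 0.73 are not the same measure as 0.59. What else had a part in these shifts was not tested.

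Counts of called members were unstable, and percentages in brackets give the share of all genes called in the same fit. For rosstr_ELstr against ROSpse_ELstr (0), DESeq2 called 6 (3.02%) and a fit to all 21 libraries 1 (0.454%). Each replicate left out gave 0 (0.00817% to 0.306%). For ROSpse_elpse against rosdor_eldor (1), DESeq2 called 3 (3.00%) and all 21 libraries 2 (0.515%). No filter (0.111%), the middle series alone (0.138%) and plant family as a term (2.14%) called 0 each. Single replicates left out gave 0 to 1 (0.0368% to 0.823%). For ROSpse_ELstr against ROSpse_elpse (5), DESeq2 called 14, the middle series alone 1 and plant family as a term 0, with 0 to 4 over replicates left out, 0 without ROSpse_elpse replicate 2, 1 without ROSpse_ELstr replicate 2 and 3 without ROSpse_elpse replicate 1 or 3. For ROSpse_elpse against ROSji7_elji7 (6), DESeq2 called 22 (12.5%), the middle series alone 23 (2.16%) and no filter 3 (2.11%). Those 22 and 23 are 11.3% and 11.9% of the members tested. Replicates left out gave 1 to 15 (1.42% to 4.85%). The count was 1 without ROSpse_elpse replicate 2 (1.42%) and 3 without ROSji7_elji7 replicate 1 (1.71%). It was 15, or 7.73% of the members tested, without ROSpse_elpse replicate 1 (2.08%). For the interaction (1), DESeq2 called 8 (2.73%) and all 21 libraries 3 (0.494%). No filter (0.196%) and the middle series alone (0.188%) called 0 each. Replicates left out gave 0 to 1 (0.0654% to 0.311%). For low against middle series (2), DESeq2 called 8 (12.0%) and no filter 1 (2.63%). Replicates left out gave 0 to 2 (0% to 3.31%). The count was 0 without replicate 1 of rosdor_eldor (0.139%), ROSpse_elpse (0%) or ROSpse_ELstr (0%). For rosstr_ELstr against rosdor_eldor (0.0210% to 0.465%) and ROSji7_ELstr against ROSji7_elji7 (0.0250% to 1.81%), every alternative called 0.

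With plant family as a term the members' median log2 fold change turned from 0.17 to -0.25 for ROSpse_ELstr against ROSpse_elpse. For ROSpse_elpse against rosdor_eldor it turned from -0.15 to 0.10. It kept its sign for rosstr_ELstr against ROSpse_ELstr, from 0.20 to 0.34, and for rosstr_ELstr against rosdor_eldor, from 0.22 to 0.24. These fits join the families through single rosdor_eldor plants. Over the 15 calls of single members, 102 of the fitted alternatives kept the call, 80 lost it and 0 reversed its direction. AnMG0607582800 for ROSpse_elpse against ROSji7_elji7 kept its call in all 12. No paired analysis was possible because the labels give no replicate numbers, so a replicate number pairs no plants across genotypes; plant family, which some genotypes share, was fitted as a term instead. Depth limits the 6 members not tested, which had few reads outside the pale plants.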
